A study of Oryza sativa with 28 samples.

Results

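The regions described here are the stretches of the rice genome at which an ATAC-seq peak was called in both libraries of sterile panicles at meiosis and in none of the other 6 libraries. ATAC-seq uses the Tn5 transposase, which cuts and tags DNA that is not wrapped tightly in chromatin, and a peak is a stretch with more insertions than its surroundings. The 8 peak lists were merged wherever peaks overlapped or touched, which gave 82432 union regions, and 154 of them (0.187%) met the rule. They are called SP3-only regions below. The rule rests on peak calls, so a region without a peak in a library had no call there, and the weaker signal it may still have carried was not measured.

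All panicles came from Wuxiang S (WXS), an indica photo-thermosensitive genic male sterile line with a mutant tms5 locus, and every group carried this genotype. The sterile panicles, WXS(S), came from plants left in a summer paddy field at the restrictive temperature, above 22°C. The fertile panicles, WXS(F), came from plants moved at a panicle length of about 1 cm to growth chambers at a mean of 22°C under the same 14 h of light, so male sterility and growing conditions cannot be told apart. FP3 and SP3 are the fertile and the sterile panicles at meiosis (P3), and FP4 and SP4 are those at the uninucleate period (P4), with 2 ATAC-seq and 3 RNA-seq libraries in each of the 4 groups. The panicle is a mixed tissue, in which fewer cells of a type and less openness or RNA per cell cannot be told apart.

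In plants, open chromatin lies mainly at promoters and at enhancer-like elements between genes, where transcription factors bind in place of nucleosomes. TMS5 encodes an RNase Z that cuts the mRNAs of Ub_L40 genes, which encode ubiquitin fused to a ribosomal protein. In tms5 mutants these mRNAs build up at high temperature and pollen mother cells fail. Meiosis is the stage at which these pollen mother cells divide, surrounded by the tapetum, the nurse layer of the anther.

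Sequence was held for 3 of the 154 regions, all on chromosome 1. Shown here are the 2 that the study's annotation placed between genes. Their letters are those of the reference genome, which is of the cultivar Nipponbare, so the bases in WXS may differ. Coordinates are those of the MSU7 build, the letters are the plus strand, and capitals mark matches on either strand to any of 11 short motifs of plant transcription factors and the TATA box.

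chr1:10068188-10068429: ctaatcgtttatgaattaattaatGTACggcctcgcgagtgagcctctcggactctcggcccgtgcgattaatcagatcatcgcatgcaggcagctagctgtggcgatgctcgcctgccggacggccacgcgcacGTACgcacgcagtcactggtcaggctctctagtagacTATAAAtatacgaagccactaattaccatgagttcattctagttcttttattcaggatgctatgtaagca
chr1:15549261-15549549: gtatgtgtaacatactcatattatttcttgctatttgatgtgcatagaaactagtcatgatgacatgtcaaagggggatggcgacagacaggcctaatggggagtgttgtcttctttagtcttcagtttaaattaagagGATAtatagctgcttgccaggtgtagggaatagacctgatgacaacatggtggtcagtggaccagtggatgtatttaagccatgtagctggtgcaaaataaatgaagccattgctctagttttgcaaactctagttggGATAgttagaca

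The first stretch is the unmasked part of the region from 10068158 to 10068429, the seventh strongest of the 154. It is 242 bases long with a GC content of 49.6%, and it held GTAC at 2 places and TATAAA once. GTAC, the core bound by SPL factors, reads the same on both strands, and TATAAA is the core of the TATA box. The second stretch is 1 library's peak within the region from 15549238 to 15549568. It is 289 bases long with a GC content of 40.5%, and it held GATA, the core bound by GATA factors, at 2 places.

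The other motifs searched, on both strands, were GCCGCC (ERF factors), the CArG box (MADS factors), CAATNATTG (HD-Zip), TTTGTC (IDD), CACGTG (bHLH and bZIP), GAANNTTC (heat shock factors), AACGG (MYB) and TGGGCC (TCP). None of their letters occurred in either stretch. In the central 200 bases of 64 other regions that the study called enriched in SP3 and whose sequence was held, GATA occurred in 60.9%, GTAC in 51.6% and TATAAA in 7.81%. A GATA or GTAC match in a window of this length was thus the usual case. The 64 windows had a median GC content of 49.5% (36 to 74), and the central 200 bases of the 2 SP3-only stretches lay within that range at 54% and 43%.

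The 10 SP3-only regions with the highest lower score of their 2 libraries lay on 8 chromosomes. The score is MACS's −10·log10 of the peak's p value, and 50 was the lowest score in the lists. The regions were chosen by these peak calls, so scores, lengths and counts of libraries are given as a description, with no test. The strongest region, chr6:30905334-30905804, scored 100.8 in SP3 replicate 1 and 87.9 in replicate 2. The region at chr8:9424762-9425190 scored 108.77 and 87.55 in the same order. The one at chr2:20056058-20056461 scored 97.93 and 87.02. All of these 3 were higher in replicate 1.

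The next regions differed less between the replicates. The region at chr7:2749702-2749983 scored 95.12 and 85.26. The one at chr5:22285917-22286134, of 218 bp, scored 83.68 and 84.06. The one at chr11:19395925-19396207 scored 81.85 and 80.46. These last 2 had nearly equal scores in both libraries. The first stretch printed above belongs to a region with scores of 79.71 and 82.85. It was followed by chr8:26130920-26131463 with 83.85 and 77.73, and by chr7:3827823-3828223 with 83.99 and 77.64. The tenth, chr10:21239787-21240379, reached 86.64 and 77.36 and at 593 bp was the longest of the 10. Of these 10 regions, 6 had another open region less than 1000 bp away, while chr8:9424762-9425190 had none within 18942 bp. The region 257 bp from chr2:20056058-20056461 had peaks in all 6 libraries outside SP3 and in neither SP3 library. Those nearest to chr8:26130920-26131463 (110 bp) and chr7:3827823-3828223 (248 bp) had a peak in 1 library, not of SP3. The others of the 6 had a neighbour with an SP3 peak. Whether such regions are shifted calls of a neighbouring site was not tested.

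**Figure D1:**
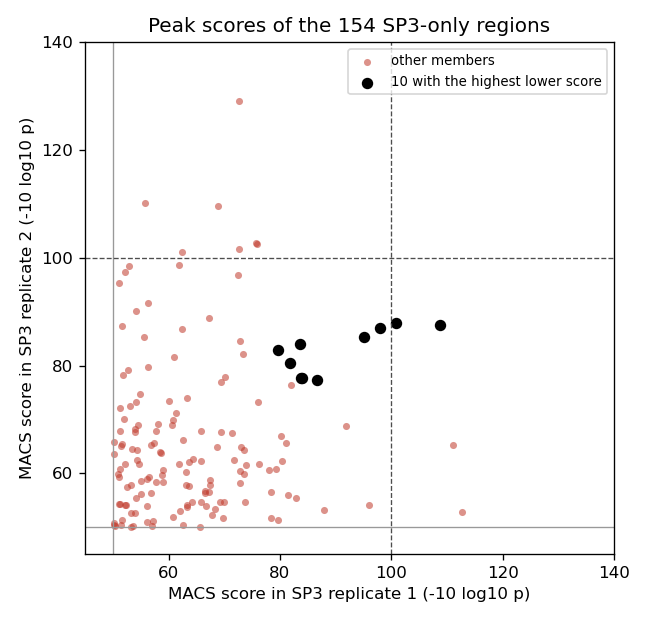
MACS score of each of the 154 SP3-only regions in SP3 replicate 1 (x axis) and replicate 2 (y axis), both as −10·log10 p. Solid lines mark the lowest score of the lists, 50, and dashed lines a score of 100. No region lies past 100 in both libraries, and 11 pass it in 1.

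SP3-only regions were weak peaks. The lower of their 2 scores had a median of 56.3, with quartiles of 52.6 and 62.4 and a range of 50.01 to 87.9, and it was below 60 in 99 of the 154 regions (64.3%). The median score was 62.4 in SP3 replicate 1 and 62.5 in replicate 2, and 13.3% of all peaks in either library scored lower. The median of all peaks was 128.6 in SP3 replicate 1 and 128.8 in replicate 2, so the typical SP3-only region stood near the bottom of both lists. No region reached 100 in both libraries. By the same rule with the groups exchanged, 45 of 1092 FP3-only, 23 of 482 FP4-only and 20 of 624 SP4-only regions did so, and the medians of the lower score there were 59.7, 58.9 and 59.2.

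The rule asks the peaks of the 2 SP3 libraries to meet in 1 region, and how closely they met was much as in the other groups. Each region held exactly 1 peak per library, the centres of the 2 peaks were a median of 17.8 bp apart, and in 130 regions they lay within 50 bp of each other. The overlap covered a median of 85.0% of the region, and it covered less than 50% in 1. In the FP3-only, FP4-only and SP4-only regions the median overlap was 83.8%, 83.2% and 84.1%, and the centres were a median of 27.8, 24.5 and 19 bp apart. Replicate 1 had the higher score in 76 regions and replicate 2 in 78, with a median ratio of the higher to the lower score of 1.17. Across the 154 regions the log10 scores of the 2 libraries had a Pearson r of 0.16. It was 0.371 for FP3-only, 0.466 for FP4-only and 0.375 for SP4-only regions. All sets share the lower limit of 50, but the lower score reached 87.9 in SP3-only regions and 167.98, 187.26 and 349.14 in those sets. An r depends on the range of the scores, so these values do not rank how well the libraries matched. The widest split was at chr8:21268768-21269100, with a score of 112.61 in replicate 1 and of 52.88 in replicate 2.

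At the rule's inner limit, chr2:29101111-29101589 had scores of 65.58 and 50.01, chr7:613388-613731 had 53.24 and 50.1, and chr5:980703-980921 had 50.12 and 50.85. Just outside it lay regions that 1 weak peak in another library removed. The region at chr6:25967601-25968026 had scores of 84.94 and 51.07 in SP3, and a score of 50.07 in SP4 replicate 1. The one at chr7:23174075-23174582 had 62.2 and 75.94, and 50.13 in FP3 replicate 1. The one at chr4:27941592-27941870 had 55.98 and 56.92, and 50.2 in FP4 replicate 2. The peaks that removed these 3 regions scored at most 50.2.

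In all, 323 regions had peaks in both SP3 libraries and in exactly 1 other, more than the 154 themselves, and the other library's score was below 60 in 121 of them. The other library was an SP4 library in 180, an FP3 library in 96 and an FP4 library in 47. Peaks in 1 SP3 library and in no other of the 8 were also more frequent than SP3-only regions, with 697 in replicate 1 and 894 in replicate 2, at median scores of 56.7 and 57.8.

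Both SP3 libraries had a peak at 45283 union regions, and 2475 of these (5.47%) had no FP3 peak. Most of those 2475 regions were also open at the later stage: 1908 (77.1%) had peaks in both SP4 libraries, 1136 (45.9%) in both FP4 libraries and 1055 (42.6%) in all 4 P4 libraries. Of the 1908, 373 (15.1% of the 2475) were open in no fertile library. The regions in SP3 alone made up 6.22% of the 2475. Compared by stage, 947 of the regions open in both SP3 libraries (2.09%) had no SP4 peak, and 220 had neither an FP3 nor an SP4 peak, which leaves 66 that an FP4 library removed.

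By peak calls, SP3 had the fewest regions to itself. FP3-only regions numbered 1092, SP4-only 624 and FP4-only 482, so that FP3-only regions were 7.09 times as many as SP3-only. Leaving out 1 library moved this ratio from 1.26 (without SP3 replicate 1) to 22.1 (without FP3 replicate 1). At both extremes the group that lost a library needed a peak in only 1, which eases the rule for that group. Without 1 of the P4 libraries, which left both SP3 and both FP3 libraries in the rule, the ratio was 5.01 to 8.81. These are counts of peak calls, and a test of read signal between the groups, a different measure, was not run here. The SP3 lists were also the shortest, with 56084 and 57196 peaks over 32.6 and 31.2 Mb, against 59787 and 63796 peaks over 39.2 and 39.7 Mb in FP3 and 58006 to 63434 peaks in the P4 libraries. With only the strongest 56084 peaks of each library, SP3-only regions rose in number to 272 and FP3-only regions fell to 923, a ratio of 3.39. With 2 libraries a group, the numbers allow no test.

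**Figure D2:**
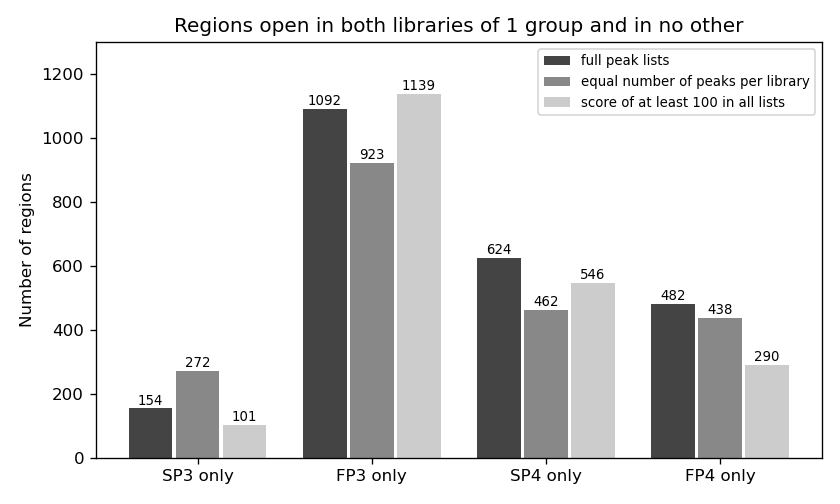
Number of regions open in both libraries of 1 group and in none of the others (y axis), for the full peak lists, for the strongest 56084 peaks of each library, and for peaks with a score of at least 100 in every list. SP3 has the fewest in each setting, with 154, 272 and 101.

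With a score of at least 100 required in every list, 101 regions were in both SP3 libraries and in no other. None of the 154 could be among them, since none reached 100 in both libraries. In the full lists these 101 had weaker peaks in a median of 4 of the other 6 libraries, at a median score of 75.4, and 82 of them had one in FP3 and 97 one in SP4. They are places open in several groups that passed 100 in SP3 alone. For FP3, 45 of the 1139 regions at the higher limit were also FP3-only in the full lists.

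SP3-only regions were short. Their median length was 344 bp (quartiles 290 and 403), against 460 bp for FP3-only, 395 bp for FP4-only, 362 bp for SP4-only, 538 bp for all union regions and 795 bp for the 35183 regions open in all 8 libraries. Together they covered 58.5 kb. The shortest, chr7:11586457-11586591, spanned 135 bp and was nonetheless among the stronger ones, with scores of 81.99 and 76.41. The longest, chr8:28263724-28264993, spanned 1270 bp with scores of 56.38 and 91.7, and 21 regions exceeded 500 bp. A union region with peaks in more libraries is longer in part because more peaks are merged in it. The libraries also differed over all their peaks. The median peak length was 485 and 455 bp in SP3 and 539 and 508 bp in FP3. It was 515 and 482 bp in FP4 and 477 and 490 bp in SP4.

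They lay among other open regions rather than apart from them. The gap to the nearest other union region had a median of 754.5 bp (quartiles 248 and 1631), against 838 bp over all union regions, and it was below 1000 bp in 91 of the 154 (59.1%, against 54.8% of all). The nearest neighbour was open in all 8 libraries in 76 cases (49.4%, against 41.8% for all union regions, 48.4% for FP3-only and 34.1% for SP4-only). In 37 cases (24%) it was open in no SP3 library, a share that was not counted for the other sets. A median of 25 other regions lay within 50 kb on either side, as for all union regions. The nearest other peak was a median of 1360 and 1192 bp away in the SP3 libraries, and 1115 to 1324 bp away in the 6 others, so that the distances in fertile and in sterile libraries overlapped.

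The extremes of spacing were wide apart. The region at chr1:7557056-7557581 was 8 bp from another open region, which had peaks in 2 libraries, neither of SP3. The one at chr12:14064584-14064872 was 10 bp from a region open in 3 libraries, SP3 among them. These 2 joined their neighbours when peaks up to 200 bp apart were merged. That merging left 132 SP3-only regions, of which 127 overlapped one of the 154. The most isolated, chr8:16773947-16774287, was 42616 bp from any other, with scores of 54.9 and 74.67.

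**Figure D3:**
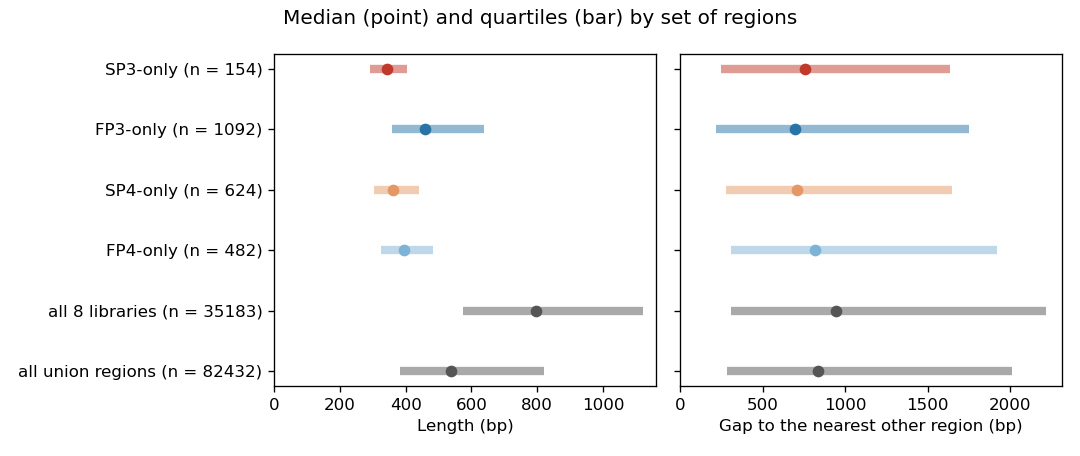
Length (left, bp) and gap to the nearest other union region (right, bp) of 6 sets of regions, with the median as a point and the quartiles as a bar. SP3-only regions are the shortest set, with a median of 344 bp, while their median gap of 754.5 bp lies among those of the other sets.

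SP3-only regions were found on all 12 chromosomes, from 7 on chromosome 9 to 21 on chromosome 7. Relative to the number of union regions, chromosome 7 had 3.26 per 1000 and chromosome 8 had 2.78 per 1000, against 1.87 over the genome and 1.28 on chromosome 2. FP3-only regions were not denser there, with 11.9 per 1000 on chromosome 7 and 11.3 on chromosome 8 against 13.2 over the genome. The other sets were slightly denser there. SP4-only regions had 7.75 and 7.7 per 1000 against 7.57, and FP4-only regions 6.2 and 6.39 against 5.85. The counts per chromosome are small and were not tested.

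Neighbouring SP3-only regions lay a median of 1702 kb apart, and 11 pairs were closer than 100 kb. The closest pair, on chromosome 10, spanned chr10:20255372-20255939 and chr10:20262945-20263651 with 7005 bp between them and 1 region open in all 8 libraries in the gap. Its 4 scores were alike, at 72.93 and 64.92 for the first and 71.3 and 67.55 for the second. On chromosome 8, 3 pairs were closer than 50 kb: 13090 bp separated the first, from chr8:13489984-13490370 to chr8:13503461-13503779, and 17991 bp the second, from chr8:21250485-21250776 to chr8:21268768-21269100. The third joined the second strongest region of all to chr8:9382391-9382917, 41844 bp away, with 9 other regions in between. No SP3-only region had another one as its nearest neighbour.

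**Figure D4:**
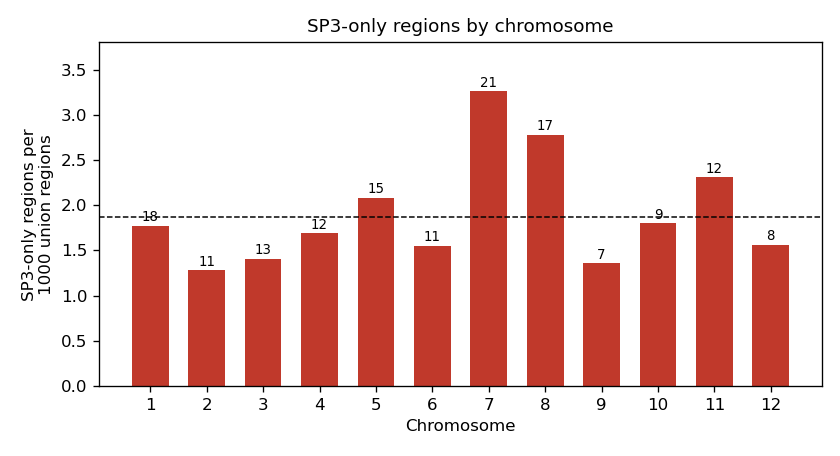
SP3-only regions per 1000 union regions on each of the 12 chromosomes (bars), with their number above each bar and the genome value of 1.87 as a dashed line. Chromosomes 7 and 8 stand highest, at 3.26 and 2.78.

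The study's peak annotation, of which a part was held, covered 6 of the 154 regions, all on chromosome 1, and the genes at the other 148 were not looked up. It placed 2 between genes and linked 4 to 7 genes, of which 5 are in the count table. The region at chr1:3157078-3157367 overlapped an exon and the 2 kb before the start of LOC_Os01g06690, for which no RNA value was used here. The region at chr1:13837884-13838146 overlapped an exon and the 3′ untranslated part of LOC_Os01g24550. The region at chr1:18463267-18463638 covered the start of LOC_Os01g33540 with its 5′ untranslated exon, and lay within 2 kb before LOC_Os01g33550. The region at chr1:33505412-33505634 lay within 2 kb before the starts of 3 genes, LOC_Os01g57956, LOC_Os01g57958 and LOC_Os01g57960. None of the 84 loci in the lists of floral, meiotic, tapetal, heat response, cell cycle, Ub_L40, motif-factor and leaf genes was among these 7 genes.

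RNA-seq is independent of the rule and asks whether the genes at these regions differed in RNA where the regions differed in openness. Total counts per library ranged from 30577833 to 51193158. SP3 replicate 3 stood apart: it had the lowest total, and counts at 34782 genes against 29014 and 28044 in SP3 replicates 1 and 2. Across genes its log2 counts per 1e6 of the library total (CPM) correlated at 0.972 and 0.975 with the other SP3 libraries, which correlated with each other at 0.982, and at up to 0.948 with an SP4 library. The fold changes of the tested linked genes and the counts of listed genes are therefore also given without it. All 13 floral MADS, 12 meiosis and 12 tapetum genes listed had counts in every library. So did the 4 leaf photosynthesis genes, of which 1 was called higher and 1 lower in SP3 than in FP3. Any count sufficed here, and 27996 to 35760 of 47919 genes had one in a library, so this does not tell tissues apart. Of the Rubisco genes, LOC_Os12g17600 had 18.1 to 26.8 CPM in SP3 and 5.77 to 6.29 CPM in FP3, and LOC_Os12g19470 had 0.556 to 0.859 and 0.510 to 0.651 CPM, which overlap.

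A gene was called at an adjusted p below 0.05 (edgeR quasi-likelihood fit, p values adjusted over all genes by Benjamini and Hochberg) with a log2 fold change beyond 1. Between SP3 and FP3, 5259 of 24405 genes (21.5%) were called, 6.74% higher and 14.8% lower in SP3. Between SP3 and SP4, 4639 of 23601 (19.7%) were called, 6.85% higher and 12.8% lower in SP3. The contrasts share the SP3 libraries. Of the 4 linked genes with enough counts to be tested, 0 were called in either contrast, and DESeq2 and limma also called 0. At an unadjusted edgeR p under 0.05 there was 1 in each contrast. The share of all genes at that limit was not counted. It is at least the 21.5% and 19.7% called, since a called gene also passes it, so the 1 is not read as a result. Without SP3 replicate 3, 2 of the 4 were called in each contrast, where 24.2% and 21.8% of all genes were. These 2 genes moved in opposite directions, and both lie at the region at chr1:33505412-33505634.

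LOC_Os01g57960 had the largest fold difference of the 4 tested genes, and no source used here names its function or that of the other linked genes. It had 54.7, 40.3 and 644 CPM in SP3 replicates 1 to 3. It had 424, 504 and 763 CPM in FP3, and 582, 829 and 636 CPM in SP4. SP3 replicates 1 and 2 thus lay far below all 9 libraries of the other groups, which ranged from 424 to 829 CPM, and SP3 replicate 3 lay among them. The log2 fold change was −1.23 ± 1.03 (SE, edgeR adjusted p = 0.38) from FP3 to SP3 and −1.48 ± 1.02 (adjusted p = 0.29) from SP4 to SP3. Without SP3 replicate 3 it was −3.51 ± 0.35 (edgeR adjusted p = 0.000966) and −3.76 ± 0.25 (edgeR adjusted p = 0.000375). Against FP3 it was −0.76 ± 1.04 without SP3 replicate 1 (edgeR adjusted p = 0.611) and −0.72 ± 0.91 without replicate 2 (edgeR adjusted p = 0.575). In each contrast the adjusted p was at or above 0.05 in 12 of 13 alternatives, so the small values rest on leaving out replicate 3.

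LOC_Os01g57958, its neighbour, went the other way. It had 55.1, 66.7 and 37.2 CPM in SP3 replicates 1 to 3. It had 26.3, 30.0 and 28.2 CPM in FP3, and 29.8, 32.1 and 30.0 CPM in SP4. All 3 SP3 libraries stood above the 9 others, whose highest value was 32.1 CPM, and replicate 3 was the nearest to them. SP3 exceeded FP3 by 0.88 ± 0.20 on the log2 scale (edgeR adjusted p = 0.0126) and SP4 by 0.77 ± 0.20 (edgeR adjusted p = 0.0205), which passed the test and missed the fold limit. The 21.5% and 19.7% of all genes called by both limits also passed this test, and the share at any fold was not counted. Over 13 alternatives the adjusted p ran from 0.000143 to 0.0507 against FP3, where it was above 0.05 in 1, and from 0.000429 to 0.0714 against SP4, where it was above 0.05 in 7, both limma fits among them. Without SP3 replicate 3 the differences were 1.15 ± 0.07 (edgeR adjusted p = 0.000263) and 1.04 ± 0.07 (edgeR adjusted p = 0.000429). The sterile-fertile difference at P3 exceeded that at P4 by 0.97 on the log2 scale (edgeR interaction, adjusted p = 0.0178), a call shared by 19.8% of the 26392 genes tested.

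The third gene at this region, LOC_Os01g57956, had few counts, at most 71 in a library. It had 0.547, 0.911 and 2.32 CPM in SP3 and 0.513 to 0.834 CPM in FP3, and the groups overlapped (log2 fold change 0.84 ± 0.56, edgeR adjusted p = 0.276). In SP4 it had 0.463 to 2.01 CPM, and the log2 fold change to SP3 was 0.26 ± 0.71 (edgeR adjusted p = 0.797). Without SP3 replicate 3 the log2 fold changes were 0.13 ± 0.38 against FP3 (edgeR adjusted p = 0.802) and −0.45 ± 0.68 against SP4 (edgeR adjusted p = 0.616). The 3 genes before whose starts the region lies thus had 3 different patterns. The RNA libraries were strand-specific, but whether the counting used the strand is not given in the sources used here, so reads of overlapping genes may not be told apart. The region itself was among the weakest of the 154, with scores of 50.13 and 63.52.

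LOC_Os01g33540, whose start is covered by an SP3-only region with scores of 57.73 and 58.33, differed little between SP3 and the groups it was tested against. It had 11.7, 13.0 and 17.4 CPM in SP3, 11.4 to 13.8 CPM in FP3, 14.4 to 15.1 CPM in SP4 and 10.0 to 11.3 CPM in FP4. The SP3 libraries overlapped those of FP3 and SP4. The log2 fold change was 0.15 ± 0.17 against FP3 (edgeR adjusted p = 0.517) and −0.09 ± 0.16 against SP4 (edgeR adjusted p = 0.699). Without SP3 replicate 3 the values were 0.05 ± 0.12 (edgeR adjusted p = 0.77) and −0.20 ± 0.10 (edgeR adjusted p = 0.152).

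LOC_Os01g24550 had few counts. It had 0 counts in each of the 3 SP3 libraries, and 3 counts, the floor used here, would be 0.0586 to 0.0981 CPM there. It had 6, 1 and 7 counts in FP3, 0, 4 and 0 in SP4 and 20, 20 and 16 in FP4. Its highest level was thus in fertile panicles at P4, and the SP3 and FP3 values were too low for the filter on counts, so it was not tested in these contrasts. Here the SP3-only region lies at the end of the gene, with scores of 95.98 and 54.15.

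**Figure D5:**
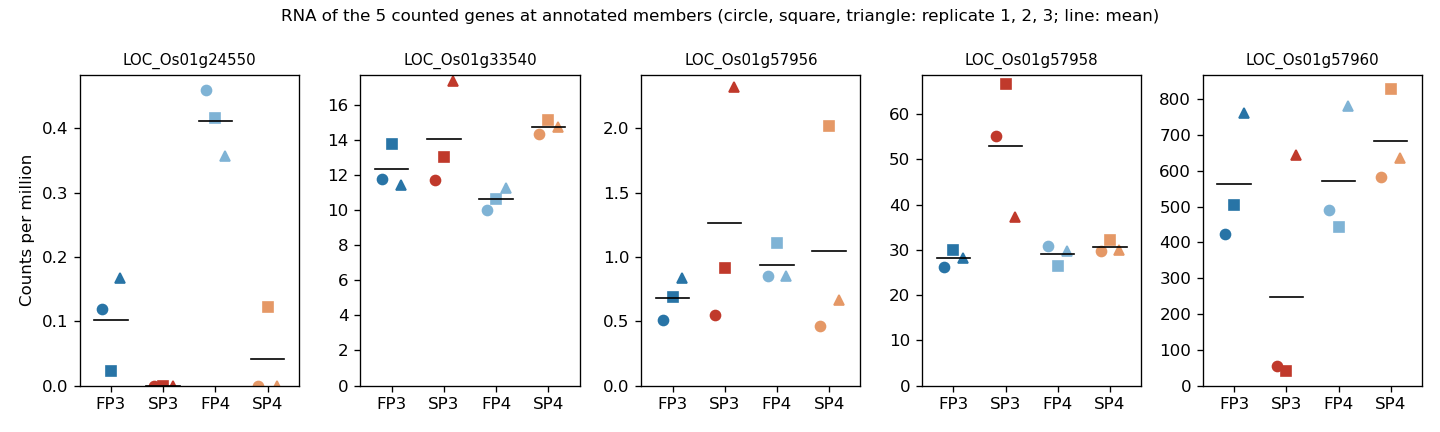
CPM, counts scaled to the library total (y axis, from 0), of the 5 counted genes at annotated SP3-only regions in each of the 12 RNA-seq libraries, by group, with circles, squares and triangles for replicates 1, 2 and 3 and a line at the mean. For LOC_Os01g57958 the 3 SP3 points lie above all others, and for LOC_Os01g57960 SP3 replicates 1 and 2 lie below all others while replicate 3 does not.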

How the data were processed

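Bowtie2 was used by the authors to map ATAC-seq reads on the MSU7 genome. MACS peaks were called by the authors in each library, and they deposited the lists with a score of −10·log10 p. Reads behind the peaks were not used here, so depth per region is unknown. For RNA-seq the authors used HISAT2 and StringTie and deposited estimated counts as whole numbers, and FPKM values. Versions of Bowtie2 and HISAT2 are not given in the sources used here. The 8 ChIP-seq samples were not analysed here.

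Peaks of all libraries were merged where they overlapped or touched, and a library was counted as open at a region by an overlap of at least 1 bp. RNA contrasts used edgeR 4.0.16 (filterByExpr, TMM, quasi-likelihood test) in R 4.3.3 on the 6 libraries of the 2 groups, with DESeq2 1.42.0, limma 3.58.1 on log2(FPKM + 1) and log2(FPKM + 0.1), and the other settings named in the closing section as alternatives. The fit was tested on simulated data. Where nothing says that replicates came from separate plants, p values and SEs measure the spread between these samples. Named regions were the 10 with the highest lower score, the 3 just inside and outside the rule and the closest pairs. Named genes were those at annotated members, since no annotation of this build was at hand for the rest. Members, lists and motifs were chosen with earlier results of these data known.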

Additional observations from a re-analysis of the deposited data

Results flagged for a closer look

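Of the 5 counted genes at annotated SP3-only regions, LOC_Os01g57958 alone differed in its sterile-fertile difference between the stages with all 12 libraries. For LOC_Os01g57958 the log2 difference of sterile over fertile panicles at P3 exceeded that at P4 by 0.97 (interaction in edgeR over all 12 libraries, adjusted p = 0.0178), a test added after the values had been seen. Of all 26392 genes tested 5223 (19.8%) passed the same threshold, so a single call among 5 genes is near the share of all genes. Without SP3 replicate 3 the value was 1.22 (edgeR adjusted p = 2.53e-05). For LOC_Os01g57960 it was −1.37 (edgeR adjusted p = 0.438), and −3.62 (edgeR adjusted p = 0.00017) without that library. The cause was not tested.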

How the results depend on the processing

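The number of SP3-only regions depended on the peak lists. It was 155 when a peak had to cover at least 50% of a region and 132 with peaks up to 200 bp apart merged, but 272 with equal numbers of peaks per library, 101 with a score of at least 100 in all lists, and 0 when that score was asked of both SP3 libraries alone. Leaving out 1 library at a time gave 176 to 1057 regions: 852 without SP3 replicate 2, 1057 without SP3 replicate 1, 248 without SP4 replicate 1 and 244 without SP4 replicate 2. The same ranges were 1242 to 4174 for FP3-only, 524 to 2123 for FP4-only and 708 to 2279 for SP4-only regions, and FP4-only regions numbered 290 at a score of at least 100. At the 154 regions, the peaks of 1 SP3 library alone had a median length of 302 to 313 bp and a median score of 62.4 to 62.5. The cause was not tested.

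Linked genes called ranged from 0 to 2 in both contrasts when 1 RNA library was left out, 2 only without SP3 replicate 3, and 1 against FP3 with all 12 libraries in 1 model, LOC_Os01g24550, which passed the count filter only through FP4, where it was highest, so that this call is no support for a difference between SP3 and FP3. Of 104 values of single genes under these alternatives 96 kept their direction and stayed called or not called by both limits together (10 of the 104 had an adjusted p on the other side of 0.05, 8 of these for LOC_Os01g57958), 4 passed it only without SP3 replicate 3 and 4 changed sign, none of them called: against SP4, LOC_Os01g33540 ranged from −0.20 to 0.013 and LOC_Os01g57956 from −0.45 to 1.08 on the log2 scale when 1 library was left out. Same-numbered libraries deviated from their group means with correlations of −0.009 to 0.046. Such low values do not show whether these libraries shared a plant, a day or a batch. With the replicate number as a block, 0 linked genes were called in either contrast, and 4533 and 4153 genes in all. On log2(FPKM + 1), limma called 2381 and 2016 genes in all. Distance to genes, shares of motifs over all members and 300 bp windows were not run, since no genome or annotation of this build was at hand, and no member remained for the settings with a score of at least 100 in SP3.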

Other observations

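Of the listed genes that have no annotated SP3-only region, all 10 heat response genes were lower in SP3 than in FP3, with a median log2 fold change of −3.87 against −0.04 over all genes tested, and all 10 stayed lower without SP3 replicate 3. Of 13 floral MADS genes 5 were higher and 0 lower (7 and 0 without that library), of 12 meiosis genes 5 and 0 (3 and 0), and of 8 cell cycle genes 5 and 0 (6 and 0), where 6.74% of all genes were higher and 14.8% lower. Of 12 tapetum and pollen wall genes 4 were higher and 4 lower (3 and 4 without it). Of the 4 Ub_L40 and tms5 genes 1 was higher and 1 lower, with or without it, and of the 22 motif-factor genes, which the study chose on these samples, 7 were higher and 9 lower, again with or without it. Of the 4 leaf photosynthesis genes 1 was higher and 1 lower (1 and 0).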
